A study of Mus musculus with 8 samples.

Results

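Peroxisomal genes were followed in the translating RNA of UCP1-positive cells from 3 adipose depots of cold-exposed mice. The members are all 16 genes whose symbol in the files begins with Pex and a digit, and 19 listed peroxisomal enzymes and transporters, which gives 35 of the 22552 gene symbols in the files. Symbols and a list set membership, with no threshold on a measured value, although earlier results of these data were known when the list was made. Pex2, a subunit of the ring of ubiquitin ligases in the peroxisomal membrane, is carried in the files under its older symbol Pxmp3 (a synonym in RefSeq) and so fell outside the rule, and Pex11g is carried as Pex11c.

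Peroxisomes are membrane-bound organelles that shorten very long-chain and branched-chain fatty acids, start the synthesis of ether lipids and break down the hydrogen peroxide that their oxidases make. Pex proteins (peroxins) build the organelle: soluble receptors carry enzymes to a docking site, a ligase and ATPase machinery pulls the receptors out again, other peroxins insert membrane proteins, and the Pex11 family elongates the organelle before it divides. In brown adipose tissue peroxisomes multiply in the cold, and their shortened acyl chains are passed to mitochondria.

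The mice were females whose strain label is C57B/6 UCP1-TRAP, in which ribosomes of cells that use the Ucp1 gene carry a GFP tag (translating ribosome affinity purification), so the cells studied are those in which Ucp1 was active. They were bred at 30 °C, weaned at 3 weeks to room temperature, placed at 4 °C at 4 weeks and sampled after 2 weeks of cold, at 6 weeks of age. Tagged ribosomes were pulled down from fresh tissue with a rabbit antibody against GFP, and the RNA on them was sequenced. White adipose tissue (WAT) gave 3 inguinal and 2 perigonadal libraries, and brown adipose tissue (BAT) gave 3, all after cold, with no library of warm animals among those used here. UCP1-positive cells of white depots are commonly called beige adipocytes, and the comparisons ask in which peroxisomal genes they differ from brown adipocytes. The labels do not say whether libraries came from separate animals or from pools, so p-values measure the spread between libraries, which may be technical.

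Values are FPKM (fragments scaled to transcript length and library size) summed over the transcripts of a gene, and they compare genes per length. About 250897 to 1119031 fragments per library lay on the listed genes, the fewest in inguinal replicate 3 and the most in perigonadal replicate 1. The same libraries had the extreme median-ratio factors, 0.545 and 1.83, against 0.886 to 1.21 in the other 6, so each value is given as deposited and, where it matters, divided by its library's factor ("scaled"). The median of all 8958 tested genes in perigonadal WAT lay 0.52 above BAT on the log2 scale as deposited and 0.02 above it after scaling. Adipocyte markers (7 of 7 listed genes, Ucp1 among them) summed to 3171 to 9372 FPKM in every library. Ucp1, whose promoter drives the tag, lay at 592 to 1593 FPKM in WAT and 1313 to 1575 in BAT. After scaling it was lower in every WAT library (869 to 1166) than in every BAT library (1482 to 1746), which missed the threshold with limma (adjusted p = 0.155 and 0.0675 in inguinal and perigonadal WAT) and passed with voom (0.0281 and 0.0110). Fabp4 and Plin1 passed as higher in perigonadal WAT as deposited (adjusted p = 0.0151 and 0.0496) and not after scaling with limma. With voom Plin1 passed there (adjusted p = 0.0440) and Fabp4 did not (0.0561). Sums of other marker lists moved with the depots, in differing directions. The 5 red blood cell markers summed to 0 to 1.26 FPKM in inguinal WAT, 7.27 to 13.9 in perigonadal WAT and 4.01 to 8.37 in BAT. The 4 skeletal muscle markers summed to 0.0773 to 0.159, 1.03 to 1.05 and 1.35 to 1.61 FPKM. The 6 smooth muscle markers summed to 43.3 to 143.9 FPKM in inguinal WAT, 2.68 to 5.78 in perigonadal WAT and 0.0647 to 0.847 in BAT. The 7 mammary luminal markers summed to 107 to 134 in inguinal WAT, 1.80 to 1.96 in perigonadal WAT and 7.02 to 22.0 in BAT. The 4 basal markers summed to 9.03 to 26.1 FPKM in inguinal WAT, 0.268 to 1.25 in perigonadal WAT and 0 in every BAT library, and the 3 fibroblast markers to 4.59 to 8.68, 8.42 to 51.3 (perigonadal replicate 1) and 0.579 to 3.72. The part of these cells in the differences from BAT was not tested.

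Of the 35 members, 32 were above 0 in all libraries and 31 averaged 1 FPKM or more over the 8 libraries. The lipid enzymes led. Scp2, which encodes a thiolase and the sterol carrier protein made from the same gene, was the most abundant member at a mean of 195 FPKM (rank 124 among all genes), followed by Cat (catalase, which removes hydrogen peroxide) at 102 and Phyh (phytanoyl-CoA hydroxylase) at 75.2. Abcd3 had 64.9, Crat 59.0, Hsd17b4 51.6 and Ehhadh 50.2. The highest peroxin was Pex19 at 35.1 FPKM. Members under 1 FPKM on average included Pex26, Acox2 and Pex5l, and the last of these, which encodes a relative of Pex5 known from neurons, was at 0 in 5 libraries.

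Together the 35 members took 0.692, 0.659 and 0.629 percent of the listed FPKM in the inguinal libraries, 0.711 and 0.678 percent in the perigonadal ones, and 0.531, 0.587 and 0.527 percent in BAT. This share does not depend on the scaling between libraries. Every WAT library lay above every BAT library. That held for the 19 listed enzymes and transporters (0.511 to 0.574 against 0.414 to 0.465 percent). It did not hold for the 16 Pex genes, where inguinal replicate 3 (0.118 percent) lay below BAT replicate 2 (0.123 percent). In 25 other tested peroxisomal genes, not members, the median scaled log2 difference from BAT was -0.11 in inguinal and -0.12 in perigonadal WAT. In RNA pulled down from a whole depot, fewer cells that use a gene and less of its RNA per cell cannot be told apart, here and in all results that follow. The core enzymes of β-oxidation made up the largest piece, 0.251 ± 0.00735 percent (SD, n = 3) in inguinal WAT, 0.264 ± 0.0162 percent (SD, n = 2) in perigonadal WAT and 0.209 ± 0.0135 percent (SD, n = 3) in BAT. Catalase alone took 0.0874 ± 0.00932 percent in inguinal WAT, 0.0846 ± 0.0183 percent in perigonadal WAT and 0.0477 ± 0.0039 percent in BAT. Import receptors and docking proteins overlapped between depots, with means of 0.0485, 0.0468 and 0.0475 percent. No test was run on these shares.

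**Figure D1:**
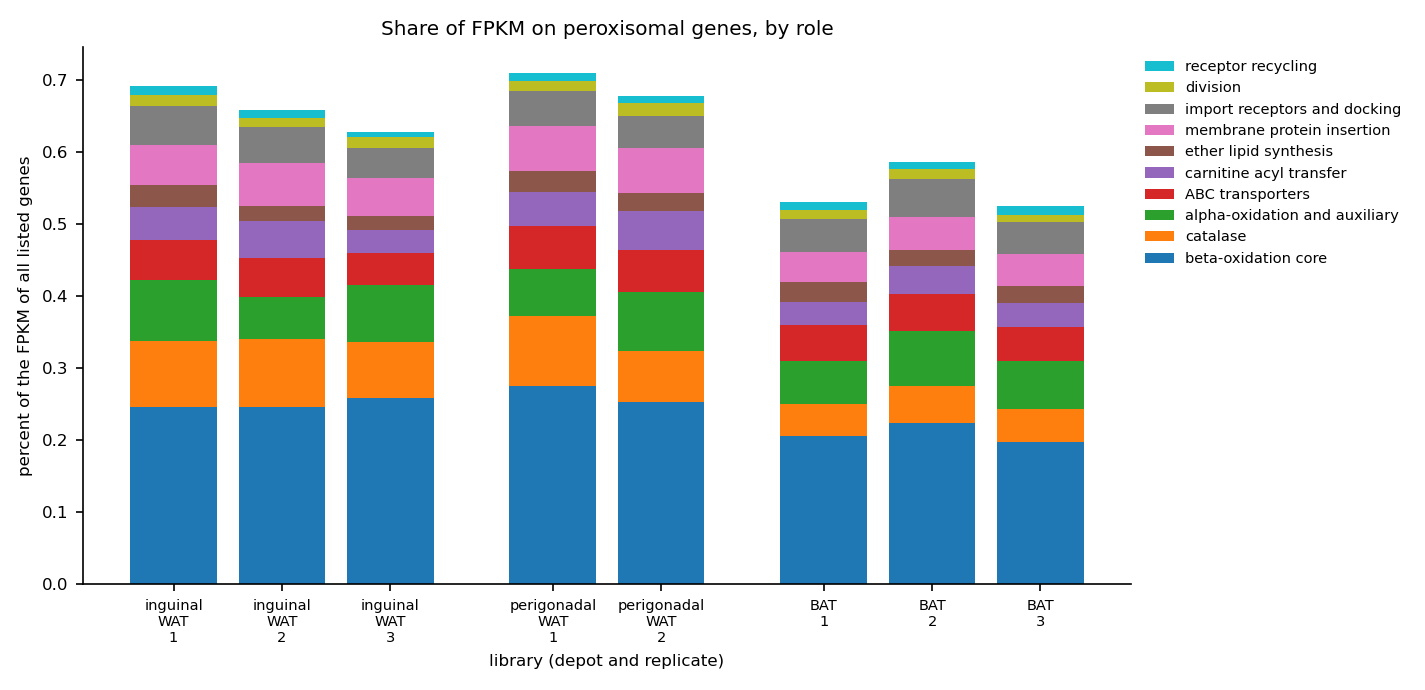
Stacked bars show, for each of the 8 libraries on the horizontal axis, the percent of the FPKM of all listed genes that falls on each role group of peroxisomal genes (vertical axis, from 0). WAT bars reach 0.629 to 0.711 percent and BAT bars 0.527 to 0.587 percent, and β-oxidation is the widest piece in all 8.

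Tests were made with limma on log2(FPKM + 1) over 8958 genes, which included 33 of the 35 members (Acox2 and Pex5l were too low). Members of low level could pass the filter through the depot where they are high, so the counts describe the tested members only. As deposited, 1 of 33 members passed an adjusted p of 0.05 between inguinal WAT and BAT (Abcd2, higher), where 2.2 percent of all tested genes passed, 1.73 percent as higher. After scaling 3 passed, all higher in inguinal WAT (Abcd2, Ehhadh and Cat), beside 4.62 percent of all genes, 2.99 percent as higher. Between perigonadal WAT and BAT the same 4 members passed on either scale, all higher in perigonadal WAT: Abcd2, Ehhadh, Acaa1b and Pex11c. The share over all genes was 5.18 percent as deposited (4.91 percent as higher) and 6.11 percent after scaling (2.61 percent as higher). With voom on estimated fragments, 3 members passed in inguinal WAT (Abcd2, Ehhadh and Cat, beside 5.44 percent of all genes) and 4 in perigonadal WAT (Abcd2, Ehhadh and Acaa1b higher and Pex7 lower, beside 10.4 percent). The perigonadal count rested on the libraries used: as deposited it was 11 in a fit of only those 5 libraries (1079 of all tested genes), 12 without inguinal replicate 3 (1326) and 1 without perigonadal replicate 1 (105). These comparisons share the BAT libraries. At an unadjusted p under 0.05, 5.39 percent of all tested genes were higher and 3.14 percent lower in inguinal WAT than BAT as deposited, and 9.96 and 9.7 percent after scaling. In perigonadal WAT these shares were 20.4 percent higher and 1.11 percent lower as deposited, and 9.01 and 11.4 percent after scaling. Unadjusted counts of members given in what follows are to be read against these shares.

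Over the members as a whole the differences from BAT were small once scaled. After scaling, the median log2 difference of the tested members was 0.06 between inguinal WAT and BAT and 0.20 between perigonadal WAT and BAT, beside 0.01 and 0.02 for all tested genes. Without scaling these medians were 0.11 and 0.84, beside 0.03 and 0.52. As deposited, 2 members (Abcd2 and Pex11c) were higher in every inguinal library than in every BAT library, beside 6.81 percent of all tested genes, and 0 were lower, beside 5.37 percent. Scaled values of 9 members were higher in every inguinal library than in every BAT library (13.2 percent of all tested genes) and those of 3 were lower (11.8 percent). For perigonadal WAT the scaled counts were 13 higher (19.9 percent of all tested genes) and 4 lower (19.6 percent), and as deposited 24 higher (48.3 percent) and 1 lower (3.72 percent). The 3 lower ones in inguinal WAT were Pex6, Pex7 and Abcd3, and the 4 in perigonadal WAT were Pex6, Pex7, Scp2 and Amacr.

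**Figure D2:**
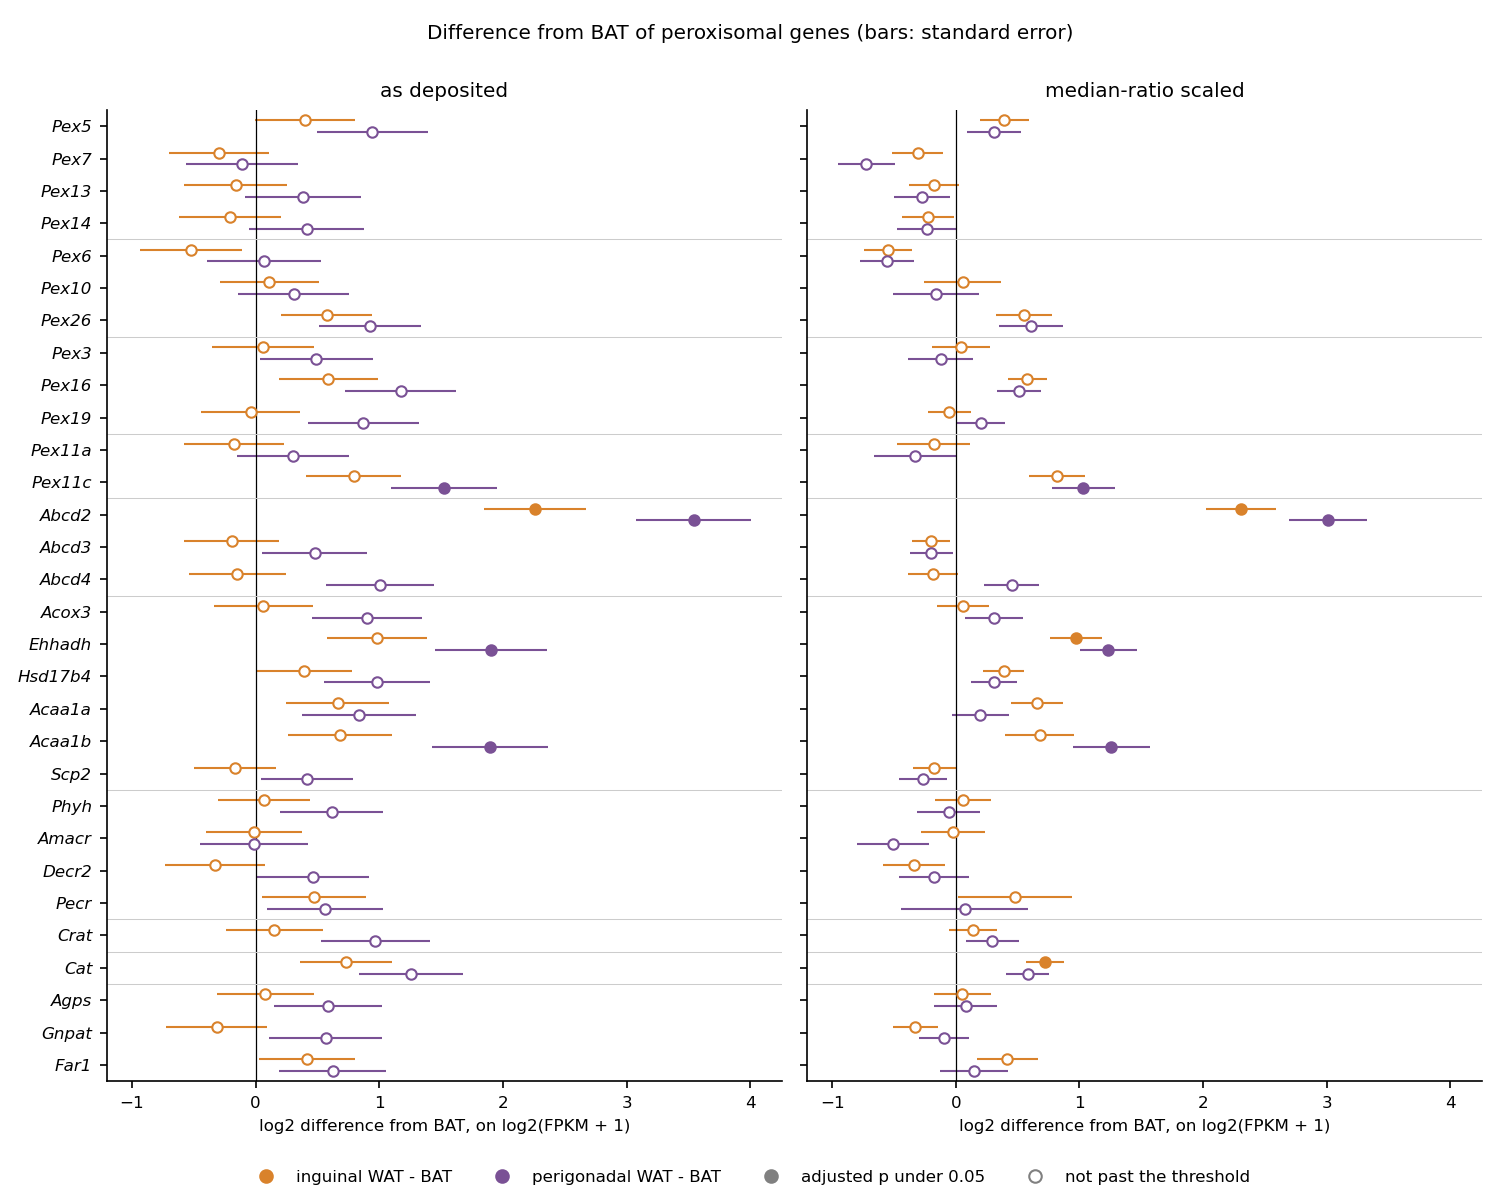
Each point is the log2 difference of a member named in the text from BAT on the log2(FPKM + 1) scale (horizontal axis) with its standard error, for inguinal WAT (orange) and perigonadal WAT (purple), as deposited (left) and after median-ratio scaling (right); filled points passed the adjusted p of 0.05. Genes are ordered by role from import receptors (top) to ether lipid synthesis (bottom), and Abcd2 stands farthest to the right at 2.26 to 3.54.

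Among the import genes no member passed either test against BAT with limma. At an unadjusted p under 0.05 the count was 1 of 4 higher (Pex5) in perigonadal WAT as deposited, beside 20.4 percent of all genes, and 1 of 4 lower (Pex7) after scaling, beside 11.4 percent, and neither count had a member in inguinal WAT. With voom, Pex7 passed as lower in perigonadal WAT (log2 difference -0.85, adjusted p = 0.0394), where 5.65 percent of all tested genes passed as lower. Pex13, a docking protein of the membrane, was the most abundant of the 4. It measured 28.5, 25.5 and 9.06 FPKM in inguinal WAT, 40.2 and 19.5 in perigonadal WAT and 22.0, 25.2 and 17.2 in BAT, and all groups overlapped, as they did after scaling (16.6 to 23.5, 16.9 to 21.9 and 19.4 to 28.0). Its partner Pex14 averaged 17.4, 25.0 and 18.6 FPKM in inguinal WAT, perigonadal WAT and BAT, and 17.3, 17.1 and 20.6 after scaling, so that perigonadal WAT moved from above BAT to below it.

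Pex5 and Pex7 encode the receptors of the C-terminal and the N-terminal targeting signal. Pex5 measured 15.0, 12.3 and 8.92 FPKM in inguinal WAT, 21.3 and 14.7 in perigonadal WAT and 7.68, 8.79 and 9.83 in BAT. Pex7 measured 13.5, 9.39 and 6.19 FPKM in inguinal WAT, 10.7 and 10.6 in perigonadal WAT and 13.0, 10.8 and 11.1 in BAT. The ratio of Pex5 to Pex7 within a library, which needs no scaling and was chosen after the values were seen, was 1.11, 1.30 and 1.44 in inguinal WAT and 1.99 and 1.38 in perigonadal WAT, against 0.590, 0.811 and 0.888 in BAT. Every WAT library lay above every BAT library in that ratio, although neither gene passed the test against BAT (lowest adjusted p of both after scaling 0.0997, for Pex7 in perigonadal WAT, at a log2 difference of -0.72). Pex5 rested on 40.7 to 167.2 estimated fragments per library and Pex7 on 21.2 to 51.3.

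Receptor recycling genes were low and did not pass the test in any comparison, with limma or with voom. Unadjusted, 3 of the 5 tested were under 0.05 as higher in perigonadal WAT than BAT as deposited (20.4 percent of all genes), and after scaling 1 higher and 1 lower against BAT in each white depot. The ATPase Pex6, the most abundant of them, measured 11.2, 9.04 and 3.99 FPKM in inguinal WAT, 14.2 and 9.76 in perigonadal WAT and 10.5, 9.56 and 14.0 in BAT. After scaling its inguinal values of 9.24, 7.95 and 7.33 and perigonadal values of 7.75 and 8.48 lay below the BAT values of 11.4, 10.6 and 15.8, at log2 differences of -0.55 ± 0.19 (SE) and -0.56 ± 0.22 (adjusted p = 0.147 and 0.178). Pex26, the membrane anchor of the Pex6 ATPase, averaged 0.893, 1.36 and 0.24 FPKM in the order inguinal WAT, perigonadal WAT and BAT, and 0.863, 0.929 and 0.267 after scaling. The depth behind it is small, with 6 estimated fragments over the 3 BAT libraries. Pex10, a subunit of the ubiquitin ligase, averaged 2.30, 2.63 and 1.95 FPKM, and 2.19, 1.69 and 2.13 after scaling.

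The gene of another ligase subunit, Pex2, listed as Pxmp3 and not a member, lay at 10.2 to 12.2 FPKM in inguinal WAT, 13.5 to 14.9 in perigonadal WAT and 7.91 to 12.3 in BAT, and after scaling at 9.68 to 18.8, 7.37 to 13.0 and 8.92 to 13.6. It did not pass the test against BAT in either depot.

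In the machinery for membrane proteins, Pex19, the soluble chaperone that carries them, measured 34.5, 37.5 and 16.0 FPKM in inguinal WAT, 62.3 and 44.7 in perigonadal WAT and 24.4, 33.0 and 28.3 in BAT. Perigonadal WAT lay above both other depots as deposited, and after scaling its 34.0 and 38.8 overlapped BAT (26.4, 36.6 and 31.9). Pex3, its docking receptor, averaged 8.63, 11.3 and 7.92 FPKM, and 8.89, 8.09 and 8.74 after scaling. Pex16, which recruits Pex3, measured 37.2, 35.9 and 19.0 FPKM in inguinal WAT, 54.7 and 36.5 in perigonadal WAT and 21.6, 16.8 and 19.6 in BAT. After scaling Pex16 was 30.6, 31.5 and 34.9 in inguinal WAT and 29.9 and 31.6 in perigonadal WAT, above 23.3, 18.6 and 22.1 in BAT, and it missed the threshold in both depots (log2 differences 0.58 and 0.51, adjusted p = 0.0687 and 0.130). A median of 69.4 percent of the FPKM of Pex16 was assigned to a transcript listed as non-coding, so its sum is not a measure of coding RNA alone.

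The Pex11 family holds the peroxin that passed the test. Pex11c (Pex11g in current naming, mm9 chr8:3458817-3467648, minus strand) measured 2.20, 2.82 and 1.55 FPKM in inguinal WAT, 5.85 and 2.99 in perigonadal WAT and 1.04, 0.484 and 0.977 in BAT. Every WAT library lay above every BAT library on both scales. The log2 difference between perigonadal WAT and BAT was 1.53 ± 0.43 (SE, adjusted p = 0.0194) as deposited and 1.03 ± 0.26 (adjusted p = 0.0402) after scaling. In inguinal WAT it was 0.79 ± 0.38 and 0.82 ± 0.23 and missed the threshold (adjusted p = 0.535 and 0.0737). Depth is thin here, with 14 estimated fragments over the inguinal libraries, 25 over the perigonadal and 5 over the BAT libraries. It reached 1 FPKM in 1 BAT library only and entered the test through WAT. As deposited the call was lost, at the same difference, with no filter on low values (adjusted p = 0.140). The same was seen with the most abundant transcript alone (0.0845, the gene has 1 transcript). The call was also lost at a pseudocount of 0.1 (0.0568) and without any single BAT library (0.0568 to 0.131). Without perigonadal replicate 1 it was lost at a log2 difference of 1.14. With voom it was not made (0.106). After scaling, with a log2 difference of 0.88 to 1.13, it was also lost without either perigonadal library, without any single BAT library and without inguinal replicate 2 (adjusted p = 0.0582 to 0.309).

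Pex11a did not pass the test. This gene, known as the inducible member of the family, measured 13.5, 6.85 and 8.68 FPKM in inguinal WAT, 14.8 and 12.0 in perigonadal WAT and 10.3, 13.1 and 8.87 in BAT, and the groups overlapped on the scale as deposited and after scaling.

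Abcd2, a transporter that carries very long-chain acyl-CoA into peroxisomes, showed the largest difference of all members (mm9 chr15:90976302-91022238, minus strand). It measured 6.87, 8.13 and 1.89 FPKM in inguinal WAT, 22.6 and 7.83 in perigonadal WAT and 0.146, 0.146 and 0.441 in BAT. The lowest WAT library, inguinal replicate 3, lay above the highest BAT library. The log2 difference from BAT was 2.26 ± 0.41 (SE, adjusted p = 0.000114) in inguinal WAT and 3.54 ± 0.46 (adjusted p = 3.54e-08) in perigonadal WAT, and after scaling 2.30 ± 0.28 (adjusted p = 0.00155) and 3.01 ± 0.32 (adjusted p = 0.000989). Since 1 is added to each FPKM, these values understate the change of a gene so low in BAT. Mean FPKM was 23.0 times higher in inguinal WAT and 62.2 times higher in perigonadal WAT, and 19.9 and 35.1 times after scaling. In estimated fragments, 123.1 fell on the inguinal, 282.2 on the perigonadal and 4.5 on the BAT libraries, which gives counting intervals (95 percent, counting error only) of 8.94 to 75.5 and 25.1 to 206.9 for the ratio per unit of depth. Abcd2 was under 1 FPKM in all BAT libraries and entered the test through the WAT libraries, where it was high. It passed against BAT in both depots without any single library, on either scale, but with no filter on low values the inguinal call ended (adjusted p = 0.182). Fibroblast markers summed to 51.3 and 8.42 FPKM in the perigonadal libraries that had 22.6 and 7.83 FPKM of Abcd2, and to 0.579 to 3.72 in BAT. In the inguinal libraries they summed to 8.68, 4.59 and 5.70 FPKM where Abcd2 was 6.87, 8.13 and 1.89. Dcn and Col1a1 passed as higher in perigonadal WAT than BAT as deposited (Dcn also after scaling). Smooth muscle markers summed to 43.3 to 143.9 FPKM in the inguinal libraries, 2.68 to 5.78 in the perigonadal ones and 0.0647 to 0.847 in BAT. Luminal markers summed to 107 to 134, 1.80 to 1.96 and 7.02 to 22.0 FPKM. With limma on either scale, 6 of 6 smooth muscle and 6 of 7 luminal markers passed as higher in inguinal WAT than BAT. Of all tested genes 1.73 percent did so as deposited and 2.99 percent after scaling. The part of all these cells in the differences of Abcd2 was not tested.

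The other transporters of the family did not pass. Abcd3, known for carrying branched-chain acyl-CoA and bile acid precursors, measured 72.2, 65.1 and 30.7 FPKM in inguinal WAT, 95.5 and 74.3 in perigonadal WAT and 62.2, 63.7 and 55.1 in BAT. After scaling all 8 libraries lay between 52.1 and 70.6, and the inguinal values (56.4 to 59.5) lay just below BAT (62.2 to 70.6), at a log2 difference of -0.20 ± 0.15. Abcd4, a family member that acts in lysosomal cobalamin transport, measured 2.51, 3.29 and 1.19 FPKM in inguinal WAT, 7.07 and 5.29 in perigonadal WAT and 3.09, 2.45 and 2.16 in BAT. Perigonadal WAT lay above both other depots for Abcd4 on both scales (log2 difference from BAT 1.01 ± 0.44 and 0.45 ± 0.22, adjusted p = 0.170 and 0.295). Within a library, Abcd2 stood to Abcd3 at 0.0951, 0.125 and 0.0617 in inguinal WAT, 0.236 and 0.105 in perigonadal WAT, and 0.00235, 0.0023 and 0.008 in BAT. In all 8 libraries Abcd3 was the more abundant of that pair.

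**Figure D3:**
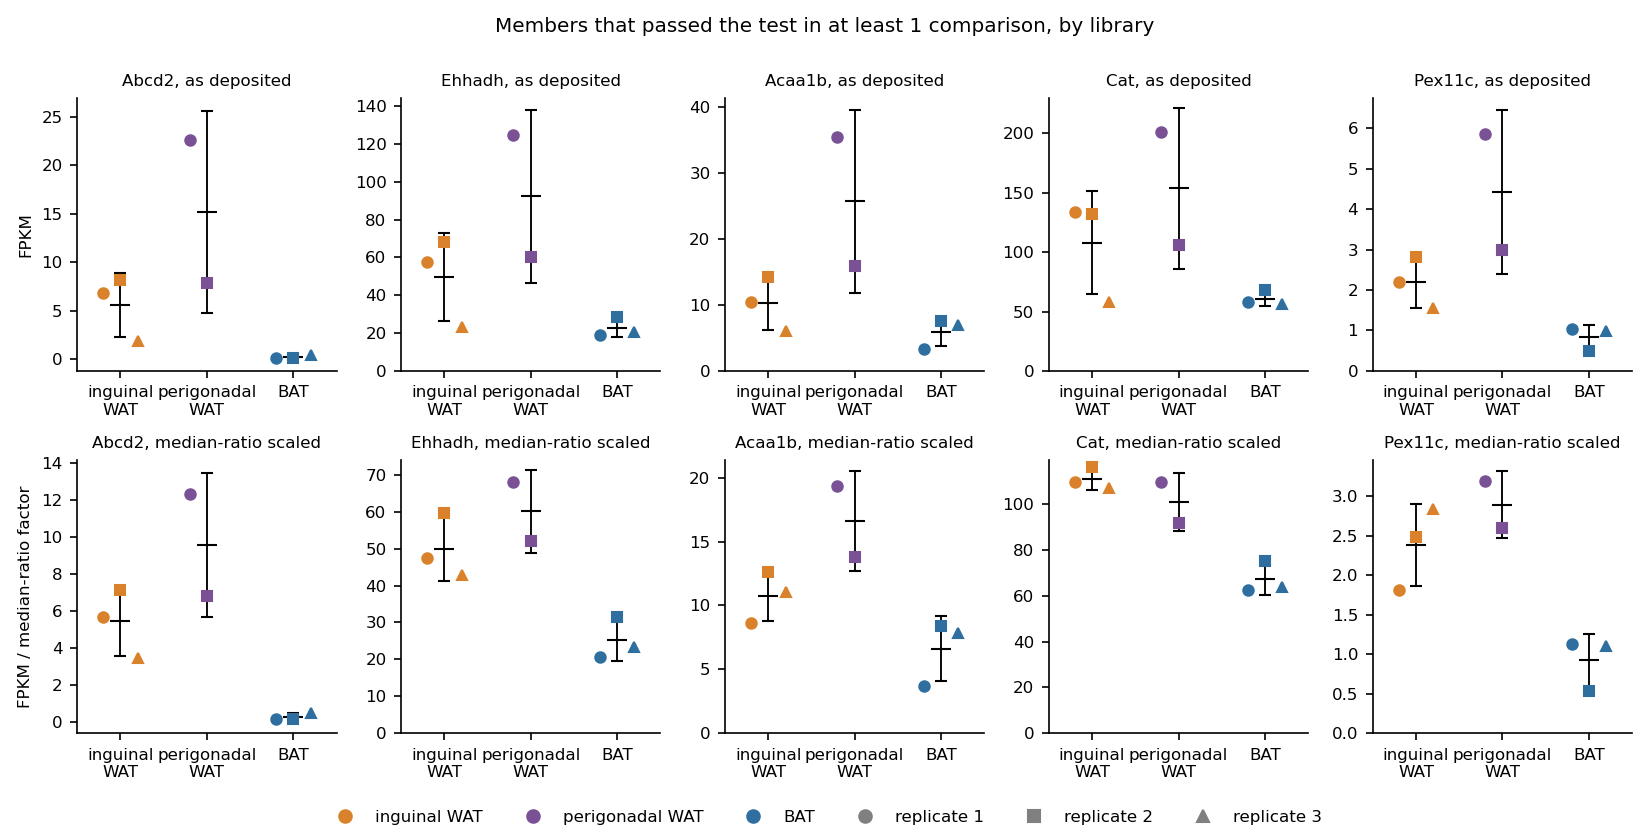
FPKM of the 5 members that passed the test in at least 1 comparison, as deposited (top) and divided by the library's median-ratio factor (bottom), by depot on the horizontal axis. Symbols are replicates, horizontal strokes are means and bars are SD (n = 3, 2 and 3); inguinal replicate 3 and perigonadal replicate 1 move most between the panels, and after scaling every WAT library lies above every BAT library for each of the 5 genes.

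In the β-oxidation pathway the bifunctional enzyme Ehhadh, which hydrates and dehydrogenates straight-chain acyl-CoA, was higher in WAT (mm9 chr16:21761358-21787907, minus strand). It measured 57.6, 68.0 and 23.3 FPKM in inguinal WAT, 124.8 and 60.0 in perigonadal WAT and 19.2, 28.4 and 20.6 in BAT. Inguinal replicate 3 fell within the BAT range as deposited, and after scaling all WAT libraries (42.8 to 68.1) lay above all BAT libraries (20.7 to 31.5). The log2 difference between perigonadal WAT and BAT was 1.91 ± 0.45 (SE, adjusted p = 0.0041) as deposited and 1.23 ± 0.23 (adjusted p = 0.0135) after scaling. Between inguinal WAT and BAT it was 0.98 ± 0.41 (adjusted p = 0.346) as deposited and 0.97 ± 0.21 (adjusted p = 0.0273) after scaling. The perigonadal call was lost without perigonadal replicate 1 on both scales (adjusted p = 0.567 and 0.146, at log2 differences of 1.38 and 1.05) and, after scaling, without BAT replicate 1 (0.0518, at 1.11). As deposited it was also lost, at the same difference, with no filter on low values (0.157) and with the most abundant transcript alone (0.0567). The inguinal call after scaling failed when inguinal replicate 1, inguinal replicate 2, BAT replicate 1 or BAT replicate 3 was left out (0.069 to 0.109), at log2 differences of 0.84 to 1.01.

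Hsd17b4, the other bifunctional enzyme, which also serves branched chains and bile acid precursors, measured 62.9, 54.4 and 34.1 FPKM in inguinal WAT, 87.5 and 62.8 in perigonadal WAT and 35.9, 40.3 and 35.0 in BAT. After scaling it too lay above BAT in every WAT library (47.7 to 62.7 against 38.7 to 44.7), with log2 differences of 0.39 ± 0.17 and 0.31 ± 0.18 that missed the threshold (adjusted p = 0.231 and 0.391). The ratio of Ehhadh to Hsd17b4 within a library was 0.534, 0.705 and 0.588 in BAT, 0.917, 1.25 and 0.683 in inguinal WAT and 1.43 and 0.957 in perigonadal WAT. Hsd17b4 was the more abundant of the pair in every BAT library, and inguinal replicate 3 overlapped BAT in this ratio.

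The thiolase genes Acaa1a and Acaa1b, neighbours on chromosome 9 that catalyse the last step of the cycle, divided differently between depots. Acaa1b (mm9 chr9:119057161-119066211, minus strand) measured 10.5, 14.3 and 6.03 FPKM in inguinal WAT, 35.5 and 15.9 in perigonadal WAT and 3.40, 7.54 and 6.92 in BAT. The log2 difference between perigonadal WAT and BAT was 1.90 ± 0.47 (SE, adjusted p = 0.00625) as deposited and 1.26 ± 0.31 (adjusted p = 0.0402) after scaling, and between inguinal WAT and BAT it was 0.69 and 0.68 (adjusted p = 0.781 and 0.211). As deposited the perigonadal call was lost, at the same difference of 1.90, with no filter on low values (adjusted p = 0.152). The same was seen with the most abundant transcript alone (0.0647, the gene has 1 transcript). It was also lost without BAT replicate 1 (0.101) and without perigonadal replicate 1 (log2 difference 1.34). After scaling it was lost without any single library other than BAT replicate 2, at log2 differences of 0.93 to 1.48. Where both perigonadal libraries were kept, the adjusted p of these scaled fits was 0.0501 to 0.0853.

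Acaa1a (mm9 chr9:119250412-119259413, plus strand) measured 20.3, 21.5 and 9.37 FPKM in inguinal WAT, 23.8 and 13.9 in perigonadal WAT and 9.88, 13.1 and 7.12 in BAT. After scaling its inguinal values (16.7 to 18.9) lay above both perigonadal WAT (12.1 and 13.0) and BAT (8.04 to 14.5), with an adjusted p of 0.109 against BAT. The ratio of Acaa1b to Acaa1a was 1.49 and 1.14 in perigonadal WAT, 0.518, 0.667 and 0.644 in inguinal WAT and 0.344, 0.576 and 0.972 in BAT. Acaa1b exceeded Acaa1a in the perigonadal libraries, and Acaa1a exceeded Acaa1b in the other 6. These paralogs are similar, so fragments that fit both were divided between them by the authors' quantification and their split is uncertain.

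Scp2, the leading member, measured 202, 184 and 120 FPKM in inguinal WAT, 286 and 213 in perigonadal WAT and 194, 196 and 167 in BAT. After scaling, the perigonadal values of 156 and 185 lay below the BAT values of 188 to 217, and the difference missed the threshold (log2 difference -0.27 ± 0.20, adjusted p = 0.508). Acox3, an oxidase for branched-chain acyl-CoA, averaged 4.53, 8.83 and 4.19 FPKM in inguinal WAT, perigonadal WAT and BAT (4.91, 5.93 and 4.64 after scaling), and Acox2, an oxidase for bile acid precursors, stayed between 0 and 1.03 FPKM.

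**Figure D4:**
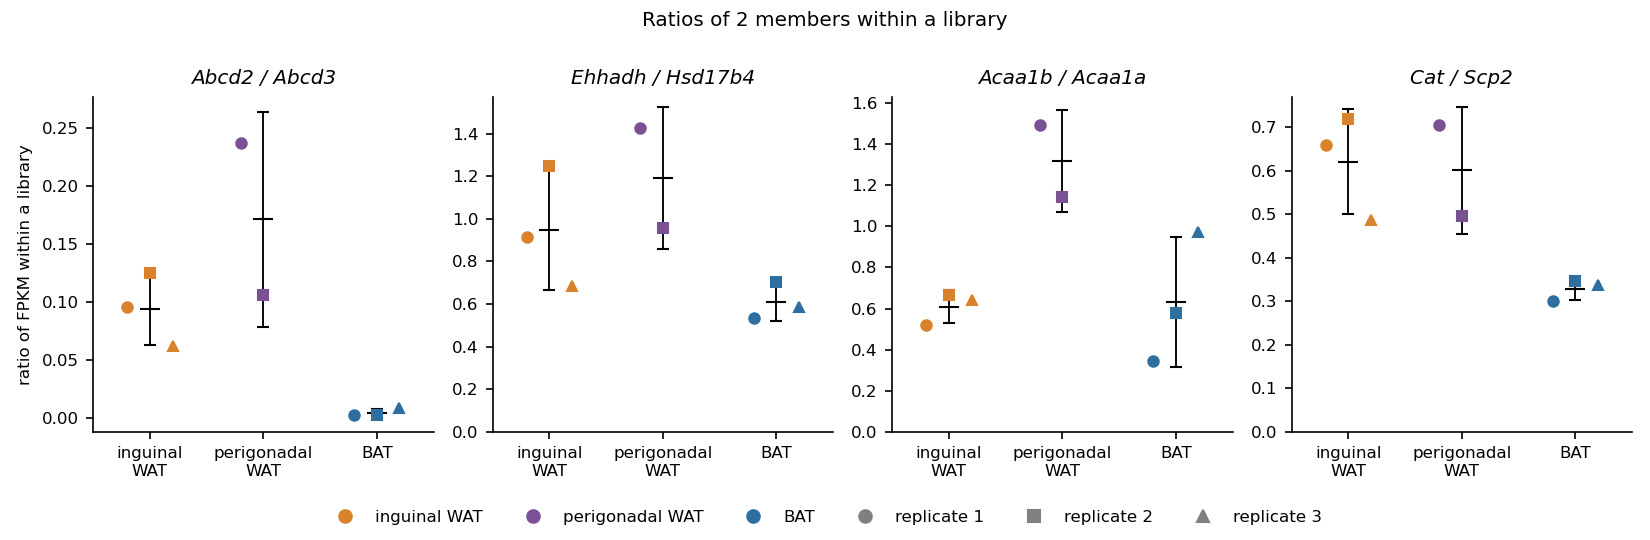
Ratios of FPKM of 4 pairs of members within a library (vertical axes, from 0) by depot, with replicates as symbols, means as strokes and SD as bars (n = 3, 2 and 3). Abcd2 to Abcd3 is 0.008 or less in BAT and 0.0617 or more in WAT, Acaa1b to Acaa1a is above 1 in perigonadal WAT, and Cat to Scp2 is 0.300 to 0.346 in BAT and 0.487 to 0.718 in WAT.

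Catalase (Cat, mm9 chr2:103294061-103325310, minus strand) measured 133.6, 132.4 and 58.3 FPKM in inguinal WAT, 201.5 and 106.0 in perigonadal WAT and 58.1, 67.8 and 56.4 in BAT. Inguinal replicate 3 fell within the BAT range as deposited. After scaling, Cat was 110.0, 116.4 and 107.0 in inguinal WAT and 109.9 and 92.0 in perigonadal WAT, and all 5 values lay above the 62.7, 75.2 and 63.7 of BAT. The inguinal difference was 0.73 ± 0.37 (adjusted p = 0.609) as deposited and 0.72 ± 0.16 (adjusted p = 0.0286) after scaling, and the perigonadal one 1.26 ± 0.42 (adjusted p = 0.0602) and 0.58 ± 0.18 (adjusted p = 0.0835). The scaled inguinal call was lost without any single inguinal or BAT library (adjusted p = 0.0569 to 0.115), while the difference itself stayed between 0.67 and 0.80. As deposited, the perigonadal difference passed with only the groups compared (adjusted p = 0.00386), at a minimum FPKM of 5 (0.0421) and without inguinal replicate 3 (0.00415). Of all tested genes 1079, 307 and 1326 passed in those fits. The inguinal difference passed without inguinal replicate 3 (0.0165) and with voom (0.0183). Relative to Scp2 in the same library, a pair also chosen after the values were seen, Cat stood at 0.660, 0.718 and 0.487 in inguinal WAT, 0.705 and 0.497 in perigonadal WAT and 0.300, 0.346 and 0.338 in BAT.

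The α-oxidation and auxiliary enzymes did not pass the test in any comparison with limma or voom, and unadjusted no member was under 0.05 as deposited or after scaling. Phyh, which starts α-oxidation of phytanic acid, measured 98.9, 63.7 and 47.5 FPKM in inguinal WAT, 107.3 and 90.1 in perigonadal WAT and 55.5, 80.4 and 58.2 in BAT, and inguinal WAT overlapped BAT. Its log2 difference from BAT after scaling was 0.06 ± 0.22 in inguinal WAT and -0.06 ± 0.25 in perigonadal WAT. Amacr, a racemase of branched-chain acyl-CoA, averaged 3.26, 3.17 and 3.29 FPKM in inguinal WAT, perigonadal WAT and BAT, and 3.55, 2.22 and 3.65 after scaling. Decr2, a reductase for unsaturated chains, averaged 11.9, 20.8 and 14.9 FPKM as deposited and 12.9, 15.0 and 16.5 after scaling, which turned the perigonadal difference from BAT. Scaling turned it for Pecr too, an enoyl-CoA reductase, with 3.85, 4.01 and 3.04 FPKM before and 4.03, 2.92 and 3.33 after.

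Crat, the carnitine acetyltransferase of peroxisomes and mitochondria, measured 67.3, 72.0 and 24.2 FPKM in inguinal WAT, 96.6 and 79.1 in perigonadal WAT and 41.9, 50.8 and 40.4 in BAT. Perigonadal WAT lay above both other depots as deposited, and all groups overlapped after scaling (log2 difference from BAT 0.14 ± 0.19 and 0.30 ± 0.21).

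No gene of ether lipid synthesis passed the test against BAT. Gnpat, which acylates dihydroxyacetone phosphate in the first step, measured 37.7, 24.7 and 11.6 FPKM in inguinal WAT, 52.1 and 33.5 in perigonadal WAT and 31.0, 26.2 and 26.6 in BAT. After scaling it was 21.3 to 31.1, 28.4 to 29.0 and 29.0 to 33.4, with log2 differences from BAT of -0.33 ± 0.18 and -0.10 ± 0.20 (adjusted p = 0.356 and 0.854). Agps, which exchanges the acyl chain for an alcohol, averaged 2.15, 3.67 and 1.89 FPKM (2.22, 2.31 and 2.09 after scaling). Far1, which makes that alcohol, averaged 2.51, 2.96 and 1.53 FPKM (2.64, 1.95 and 1.68 after scaling). Between white depots and BAT none of these 3 genes was under an unadjusted p of 0.05 on either scale.

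Between inguinal and perigonadal WAT no member passed with limma, where 0.703 percent of all tested genes did as deposited and 0.313 percent after scaling. Unadjusted, 5 members were under 0.05 as deposited and 2 after scaling, all lower in inguinal WAT, beside 11.2 and 2.78 percent of all genes, and voom also passed none of them, beside 0.681 percent of all tested genes. All 33 differences were negative as deposited (9.34 percent of all tested genes were above 0), with a median of -0.59 beside -0.50 for all genes, and 10 were lower in every inguinal library than in both perigonadal ones (27.5 percent of all tested genes), while after scaling 17 were above 0 and the median was 0.01. The differences of Abcd2 (-0.71 ± 0.32) and Abcd4 (-0.63 ± 0.22) were the largest after scaling (adjusted p = 0.656 and 0.465). As deposited the difference of Abcd2 was -1.28, and -1.99 without perigonadal replicate 2, when replicate 1 alone stood for that depot.

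Promoters of the members whose enzymes passed the test, and of Acaa1a for comparison with its neighbour, are shown because several of these genes are textbook targets of PPAR receptors. RefSeq promoters of the build GRCm38.p6 matched 25 of the 35 members (30 windows). The 250 bases before the annotated start are given 5′ to 3′ on the gene's strand, and capitals mark a match to the element that such receptors bind, 2 copies of AGGTCA in direct repeat with 1 base of any kind between them, searched on both strands with at most 2 mismatches.
Ehhadh, chr16:21787835-21788084, minus strand: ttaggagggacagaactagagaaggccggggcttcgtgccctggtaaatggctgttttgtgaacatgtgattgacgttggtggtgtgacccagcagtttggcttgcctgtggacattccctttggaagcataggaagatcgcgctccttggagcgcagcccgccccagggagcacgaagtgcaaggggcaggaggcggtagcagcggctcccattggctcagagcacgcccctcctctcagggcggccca
Cat, chr2:103485154-103485403, minus strand: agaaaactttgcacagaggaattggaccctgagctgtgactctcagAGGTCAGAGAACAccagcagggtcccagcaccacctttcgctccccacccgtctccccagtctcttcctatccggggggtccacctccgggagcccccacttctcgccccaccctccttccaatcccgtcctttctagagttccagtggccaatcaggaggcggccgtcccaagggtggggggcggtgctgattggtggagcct
Acaa1a, chr9:119341044-119341293, plus strand: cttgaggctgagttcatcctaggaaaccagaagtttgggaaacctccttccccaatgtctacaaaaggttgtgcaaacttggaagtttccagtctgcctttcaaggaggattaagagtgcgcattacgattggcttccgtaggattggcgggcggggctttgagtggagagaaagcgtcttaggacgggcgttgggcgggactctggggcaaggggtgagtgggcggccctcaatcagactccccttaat
Acaa1b, chr9:119157094-119157343, minus strand: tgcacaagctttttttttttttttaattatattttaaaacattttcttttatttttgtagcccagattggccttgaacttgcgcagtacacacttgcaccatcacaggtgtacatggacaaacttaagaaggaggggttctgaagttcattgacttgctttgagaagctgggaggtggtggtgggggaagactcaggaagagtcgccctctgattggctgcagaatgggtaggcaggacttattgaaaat
The window of Cat held 1 match, on the plus strand of the gene, beginning at position -204 from the start and with 2 mismatches. It was the only match in the 30 windows, and 3.24 percent of all 32851 promoter windows of this length held one. These letters are not in the other windows shown, which says nothing of sites elsewhere. The windows of the members had a median of 59.4 percent G and C and 12 CpG, beside 52.4 percent and 6 over all promoters. Acaa1b stood apart with 41.6 percent and 2 CpG, whereas Acaa1a had 53.6 percent and 10, and their windows matched at 63.4 percent of 216 aligned bases.

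Of 33 other peroxisomal proteins, 32 were in the files and 25 were tested. Their clearest difference ran opposite to that of Abcd2. Slc27a2, an acyl-CoA synthetase for very long chains, was lower in WAT: it measured 18.5, 24.1 and 11.2 FPKM in inguinal WAT, 21.5 and 22.0 in perigonadal WAT and 45.4, 54.5 and 51.3 in BAT. Every WAT library lay under every BAT library. The log2 difference was -1.50 ± 0.40 (adjusted p = 0.0198) in inguinal WAT and -1.17 ± 0.44 (adjusted p = 0.111) in perigonadal WAT, and after scaling -1.52 ± 0.21 (adjusted p = 0.00335) and -1.82 ± 0.24 (adjusted p = 0.00281). Of all tested genes, 0.469 percent passed as lower in inguinal WAT as deposited, 1.63 percent after scaling, and 3.49 percent in perigonadal WAT after scaling. Idh1, an isocitrate dehydrogenase of cytosol and peroxisomes, passed as higher in inguinal WAT after scaling (0.84 ± 0.17, adjusted p = 0.0206), with 69.0, 53.9 and 25.0 FPKM against 29.5, 23.5 and 22.0 in BAT and 82.9 and 47.6 in perigonadal WAT (scaled, 45.9 to 56.8, 24.8 to 31.8, and 45.2 and 41.3). With voom, Idh1 passed as higher and Slc27a2 as lower in both white depots, beside 5.44 percent of all tested genes in inguinal and 10.4 percent in perigonadal WAT. Pipox, Hao1, Hao2, Dao, Agxt and Uox, enzymes of peroxisomes in liver and kidney, were listed at 0 in all libraries.

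Of 3 tested fission factors shared with mitochondria, Fis1, a membrane adaptor of division, passed as lower in perigonadal WAT after scaling (-0.89 ± 0.22, adjusted p = 0.0405). It measured 32.8, 31.7 and 17.8 FPKM in inguinal WAT, 24.1 and 22.0 in perigonadal WAT and 25.9, 33.1 and 23.5 in BAT, and as deposited its log2 difference was -0.24. Scaled, the perigonadal values of 13.1 and 19.1 lay below the BAT values of 26.6 to 36.7. With voom, Fis1 and Mff passed as lower in perigonadal WAT, beside 5.65 percent of all tested genes. With limma after scaling that share was 3.49 percent. Of 10 PPAR receptors and partners none passed against BAT with limma or voom. At an unadjusted p under 0.05, 1 was higher in perigonadal WAT as deposited, beside 20.4 percent of all genes. After scaling 1 was lower in inguinal WAT (9.7 percent of all genes) and 1 lower in perigonadal WAT (11.4 percent). Pparg, the adipogenic receptor, averaged 22.8, 35.9 and 28.4 FPKM, and 23.3, 23.9 and 31.3 after scaling, which put perigonadal WAT below BAT. Ppara, the receptor linked to fatty acid oxidation, averaged 6.30, 16.9 and 9.44 FPKM, and 6.29, 10.8 and 10.5 after scaling. Of 16 genes of mitochondrial β-oxidation none passed against BAT either (unadjusted, 1 in perigonadal WAT as deposited and 5, all lower, after scaling, beside 20.4 percent of all genes as higher and 11.4 percent as lower), while voom passed 2 as lower in perigonadal WAT, Acadm and Etfa. Hadhb, a subunit of the mitochondrial trifunctional protein, averaged 773, 1036 and 630 FPKM, and 837, 707 and 697 after scaling. Acadm, the medium-chain dehydrogenase, averaged 385, 493 and 444 FPKM, and 412, 336 and 491 after scaling, when both perigonadal libraries lay below all BAT libraries. Against Hadha, the other subunit and likewise chosen with values in view, Ehhadh stood at 0.222, 0.300 and 0.163 in inguinal WAT, 0.401 and 0.253 in perigonadal WAT and 0.125, 0.157 and 0.115 in BAT, so every WAT library lay above every BAT library.

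Exons of Crat, Pex3 and Pex13 overlap exons of a gene on the other strand, and the sources used here do not give whether strand was used in counting.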

How the data were processed

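Translating RNA of UCP1-positive cells was measured by RNA sequencing in 3 inguinal WAT, 2 perigonadal WAT and 3 BAT libraries, grouped by the tissue label. Reads were processed with TopHat and Cufflinks on mm9, per the submitters' processing notes (no versions). The deposited files hold FPKM per transcript, computed by the authors for 1 library each (with other values, such as confidence bounds, per the file headers), and no counts. Not given in the sources used here are the options, the use of strand and whether libraries were scaled. FPKM was summed over a gene's transcripts. Fragments were estimated from each FPKM and its upper bound, and 83.9 to 92.8 percent of low values came out whole within 0.05.

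Genes with at least 1 FPKM in at least 2 libraries and a transcript of at least 300 nt were tested (8958). The test was limma 3.58.1 (R 4.3.3) with a variance trend on log2(FPKM + 1), all 8 libraries in 1 model of 3 groups, two-sided, with Benjamini-Hochberg adjustment over all tested genes in each comparison at 0.05. Median-ratio factors came from 8577 genes. Simulated data, with genes changed in inguinal WAT only, were put through the scaled fit of inguinal WAT against BAT. The fit as deposited and the perigonadal comparison were not checked in that way. The members and lists were chosen with earlier results of these data known. Values in every library are given for members that passed, for the most abundant member of each role and for paralogs set side by side, members under 1 FPKM by range, and of other lists up to 4 genes that passed, or else the 2 most abundant. Alternatives were other pseudocounts, filters, scaling, fits of only the groups compared, no trend, the most abundant transcript, the replicate number as a block, each library left out, and, chosen after seeing the data, voom on estimated fragments and each library left out after scaling. The values of some members are not reported here. Figures and promoter searches used Python 3.11.15.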

Additional observations from a re-analysis of the deposited data

How the results depend on the processing

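As deposited, 197 genes passed between inguinal WAT and BAT, 464 between perigonadal WAT and BAT and 63 between the white depots. For inguinal WAT against BAT the count was 414 with scaling, 131 at a pseudocount of 0.1, 11 with no filter, 124 at a minimum FPKM of 5, 93 with the most abundant transcript and 487 with voom. For perigonadal WAT against BAT it was 214 at a pseudocount of 0.1, 117 with no filter, 307 at a minimum of 5, 174 with the most abundant transcript, 1079 with only the groups compared and 930 with voom. Between the white depots it was 28 with scaling, 5 and 146 at pseudocounts of 0.1 and 5, 9 with no filter, 32 at a minimum of 5, 12 with the most abundant transcript, 34 with only the groups compared and 40 with short genes kept. Of the members, 3 passed in inguinal WAT against BAT with scaling and with voom and 0 with no filter, where Abcd2 had an adjusted p of 0.182. In perigonadal WAT against BAT 11 passed with only the groups compared, and 1, Abcd2, with no filter or the most abundant transcript. Pex11c did not pass there at a pseudocount of 0.1 (adjusted p = 0.0568) or with voom (0.106).

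Leaving out each library in turn, the counts ranged from 109 to 336 genes and 1 to 3 members for inguinal WAT against BAT (highest without inguinal replicate 3), from 105 genes and 1 member (without perigonadal replicate 1) to 1326 genes and 12 members (without inguinal replicate 3) for perigonadal WAT against BAT, and from 11 to 220 genes and 0 to 1 members between the white depots. After scaling, the members counted were 1 to 3 for inguinal WAT, 1 to 3 for perigonadal WAT and 0 between the white depots. A library left out of perigonadal WAT leaves 1 sample, assumed to vary like the other groups.

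With the replicate number as a block, 280, 418 and 88 genes and 1, 4 and 0 members passed. Between inguinal WAT and BAT, deviations of same-numbered libraries from their group means correlated at 0.0804 to 0.126. Those of libraries with different numbers correlated at -0.0773 to -0.0329. Same-numbered pairs with a perigonadal library lay at -0.0871 to -0.0136. The deviations of the 2 perigonadal libraries mirror each other, so these pairs cannot decide the question. Whether the numbers pair samples was not tested further, and the main model did not use them.

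Over all member values and alternatives, 25 of 2648 gained a call and 41 lost one. The other 2582 were mostly differences with no call to lose, so their number does not measure how stable the calls were. Among them 173 uncalled differences changed sign. All lost calls were of Abcd2, Ehhadh, Acaa1b, Pex11c and Cat, the members that passed in a main fit. Low fragment numbers limit Pex11c, Pex26 and the BAT level of Abcd2.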
